A study of Bos taurus with 8 samples.

Results

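Transcripts of the 5 complexes of oxidative phosphorylation were compared in granulosa cells of atretic and growing bovine follicles. The genes were chosen by symbol, as all those of the platform annotation whose names begin with NDUFA, NDUFB, NDUFC, NDUFS or NDUFV and a number (complex I), SDHA to SDHD (complex II), UQCR (complex III), COX4 to COX8 followed by a letter from A to C (complex IV) or ATP5 (complex V). This gave 78 of 15229 gene symbols, with 37 in complex I, 4 in complex II, 7 in complex III, 14 in complex IV and 16 in complex V. Each gene was represented by its probe of highest mean intensity. In all, 77 of the 78 were bright enough to be fitted, among 13625 genes fitted. The exception was COX6A2, the muscle form of a complex IV subunit, which was brighter than the negative control spots on 0 of 8 arrays in the atretic channel and on 1 of 8 in the growing channel. The choice by symbol has known gaps. It leaves out subunits named otherwise, such as CYC1, NDUFAB1 and the COX4 subunits (COX4I1 and COX4I2), so no COX4 gene was examined. It also leaves out the subunits encoded by mitochondrial DNA. It takes in ATP5S, now named DMAC2L, which is not a subunit of ATP synthase.

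Oxidative phosphorylation takes place in the inner mitochondrial membrane. Complexes I and II pass electrons from NADH and succinate to ubiquinone, complex III passes them on to cytochrome c and complex IV to oxygen. Complexes I, III and IV pump protons as they do so, and complex V, the ATP synthase, uses the returning protons to make ATP. Granulosa cells also carry out the first step of steroid synthesis in mitochondria.

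The follicles came from ovaries of Holstein cattle collected at slaughter and measured more than 9 mm on the ovary surface. They were assigned to the atretic phase (regressing, with death of granulosa cells) or the growing phase by flow cytometry, and the RNA of 4 atretic and 4 growing follicles was amplified and hybridised. Each atretic follicle shared 2 arrays of opposite dye orientation with 1 growing follicle, which gave 4 pairs, numbered 1 to 4 by where the labels place or title each array. Both phases consisted of dominant follicles, and the labels give no treatment or genetic change that separates them. The tissue was dissected granulosa cells, so fewer cells of a type and less RNA per cell cannot be told apart.

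Ratios are log2 of atretic over growing and stand for n = 4 pairs, where ± gives the SE that limma estimated. Levels are log2 intensities of a follicle, averaged over its 2 arrays. They are set against each other within a probe only.

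The data matched the labelled cell type in that 10 of 12 granulosa markers were brighter than negative controls on all 16 channels. The count was 5 of 8 for theca markers, 2 of 6 for smooth muscle and pericyte markers, and 0 for the markers of endothelium, leukocytes, erythrocytes and oocytes. Between 49.2% and 71.7% of probes per channel exceeded the negative controls. Of all genes fitted, 0 passed an adjusted p of 0.05 in limma, and 1143 had an unadjusted p under 0.05.

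No oxidative phosphorylation gene passed the threshold used in the study, a fold of 1.5 or more in either direction at an unadjusted p under 0.05. The share over all genes was 5.11% (696 of 13625). With the pair as a random block over the 8 arrays, 3 genes passed it (COX7A1 and ATP5A1 with a higher, NDUFV1 with a lower mean in atretic follicles). This is 3.9% of the 77 and below the 8.98% of all genes in that fit. The blocked fit set a single correlation of 0.46 between the 2 arrays of a pair. Over all genes 1223 passed in it, close to the 1225 of a fit that treats dye swaps as separate follicles. At an unadjusted p under 0.05 alone, limma over the 4 averaged pairs gave 2 of the 77 genes, NDUFC2 and ATP5S. In that fit 0 passed the adjusted threshold, the smallest adjusted p being 0.716. The 4 atretic levels overlapped the 4 growing levels in all 78 genes, whereas they did not overlap in 3.61% of all genes. The mean was higher in atretic follicles for 32 of 77 genes (41.6%, against 52.3% of all genes), a count that became 24 with loess alone and 45 with median centring. The median of the mean ratios was -0.06, with 0.01 over all genes. A p that misses the threshold does not show that the phases were alike, because the spread over pairs was wide.

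**Figure D1:**
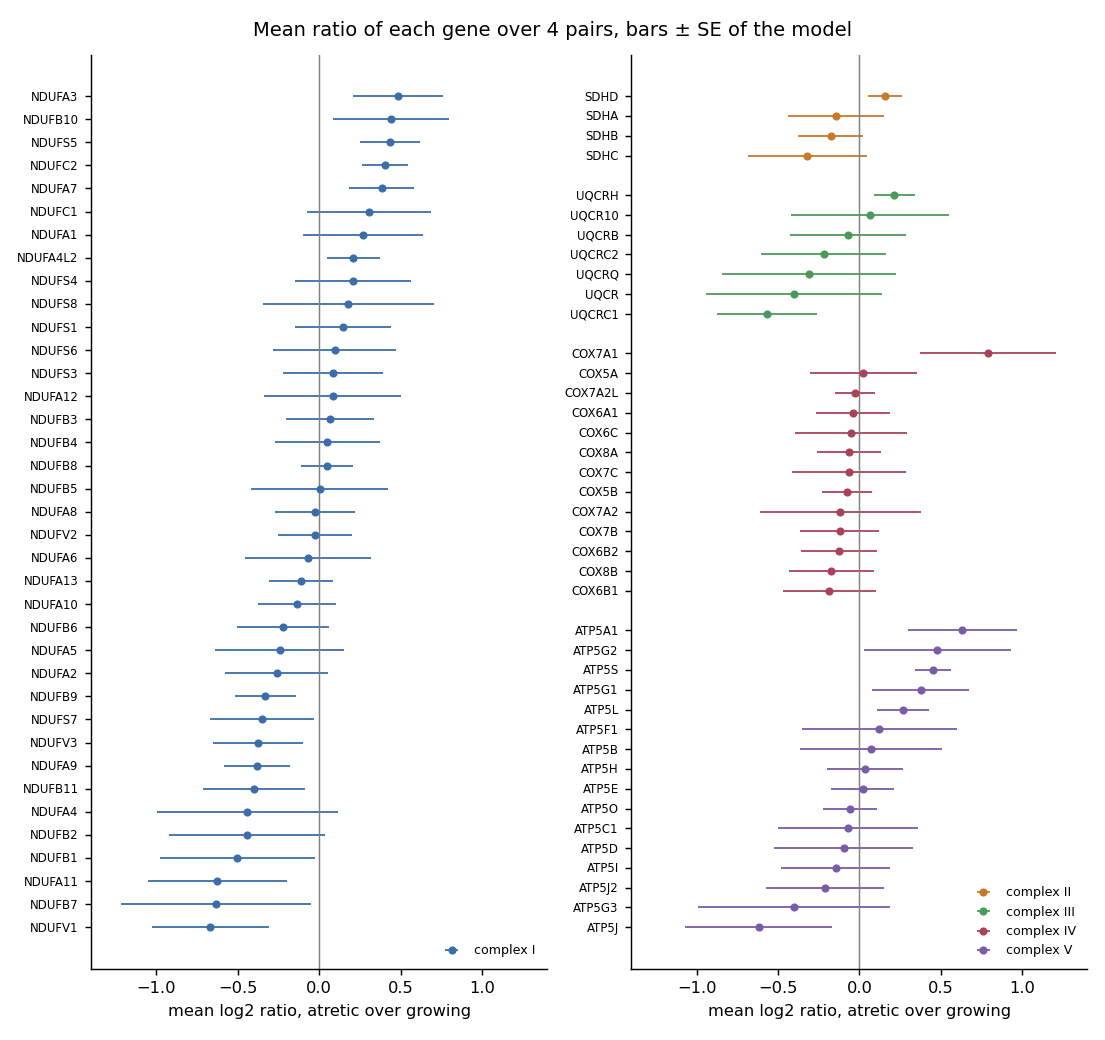
Mean log2 ratio (atretic over growing, horizontal axis) of each of the 77 genes, ordered within its complex, with bars of ± SE of the model over 4 pairs. The means lie between -0.67 for NDUFV1 and 0.79 for COX7A1, and none passed the threshold of the study.

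The small means came with large differences of opposite sign between pairs. In pair 1 the median ratio of the 77 genes was 0.87, and 70 of them were higher in the atretic follicle. In pair 2 the median was -0.16, with 33 genes higher in the atretic follicle. In pairs 3 and 4 the medians were -0.44 and -0.41, with 16 and 14 genes higher in the atretic follicle. The medians of all genes were 0.01 to 0.02 in every pair. The median SD over the 4 pairs was 0.78 for these genes and 0.40 for all genes. These genes were brighter, as 74 of the 77 had a mean log2 intensity of at least 8, against 7066 of 13625 genes. No comparison with all genes given here was matched for brightness.

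**Figure D2:**
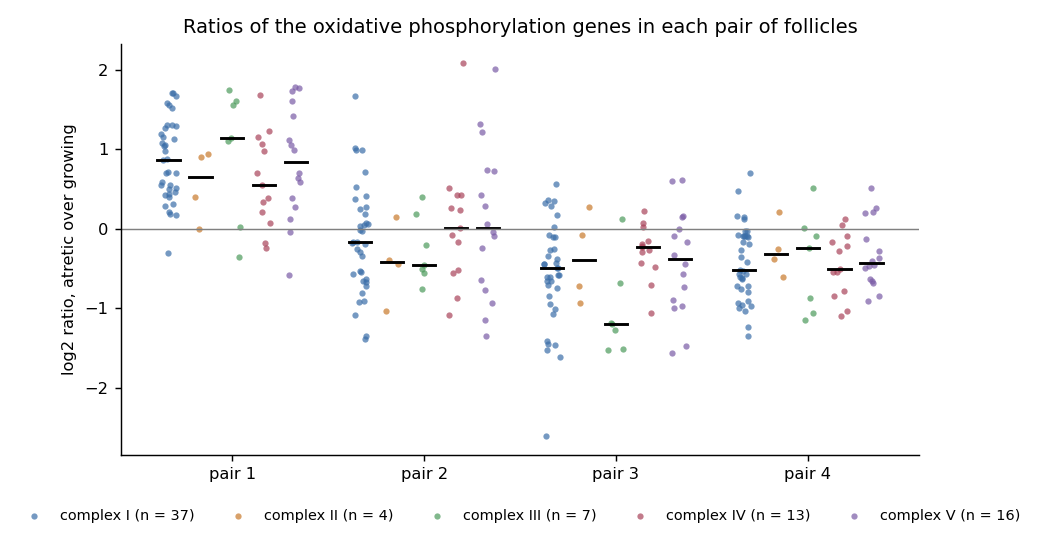
Log2 ratio (atretic over growing, vertical axis) in each of the 4 pairs of follicles. Each point is a gene, coloured by complex, and black bars are medians, which lie above 0 for all 5 complexes in pair 1 and below 0 for all 5 in pairs 3 and 4.

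The medians of each complex had the same sign in pairs 1, 3 and 4. The median of complex I was 0.87, -0.17, -0.49 and -0.52 in pairs 1 to 4. Complex III, the cytochrome bc1 complex, had the widest range, with medians of 1.15, -0.46, -1.19 and -0.24. Complex IV had the narrowest, with 0.55, 0.01, -0.22 and -0.50. The medians of complex V were 0.85, 0.01, -0.38 and -0.43, and those of the 4 genes of complex II were 0.65, -0.41, -0.39 and -0.31. All 5 complexes were thus higher in the atretic follicle of pair 1 and lower in those of pairs 3 and 4.

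In 37 of the 77 genes (48.1%), the ratio was above 0 in pair 1 and below 0 in pairs 2, 3 and 4. Over all genes that pattern occurred in 10.6%, and the opposite one in 11.3%. The opposite pattern was found in 2 of the 77 genes. The genes with the first pattern were 18 of complex I, 3 of complex II, 4 of complex III, 5 of complex IV and 7 of complex V. The pattern was noticed in these follicles and no test was made of it.

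Ratios were similar on both arrays of a pair. Across the 77 genes the 2 arrays of a pair correlated with r = 0.82, 0.87, 0.84 and 0.62 in pairs 1 to 4. The sign was the same in 70, 60, 65 and 64 of 77 genes. On the arrays with the atretic follicle in Cy5 the medians were 0.80, -0.20, -0.50 and -0.45, and on those with the growing follicle in Cy5 they were 0.86, -0.10, -0.44 and -0.32. The slide and the dye orientation cannot be told apart.

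Levels were also read per follicle, where an effect of an array on the level is shared by the follicles of a pair. For each gene the mean over the 8 follicles was subtracted, and the median of the 77 differences was taken. These medians were 0.36, -0.32, -0.14 and 0.06 in atretic follicles 1 to 4, against -0.35, -0.22, 0.33 and 0.43 in growing follicles 1 to 4. The lowest value was that of growing follicle 1 and the highest that of growing follicle 4, so that the 2 phases overlapped over almost their whole range. Atretic follicle 1 held the highest level of the 4 atretic follicles for 45 of 77 genes, and atretic follicle 2 the lowest for 43. Among the growing follicles, follicle 4 was highest for 41 genes and follicle 1 lowest for 48. For other normalisations, tried after these values were seen, the median of all probes past the intensity filter was also subtracted in each follicle. Atretic follicle 4, at 0.06 in that form too, then turned sign, to -0.09 with loess alone, -0.02 with Aquantile and -0.06 with median centring. The other 7 follicles kept their sign.

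**Figure D3:**
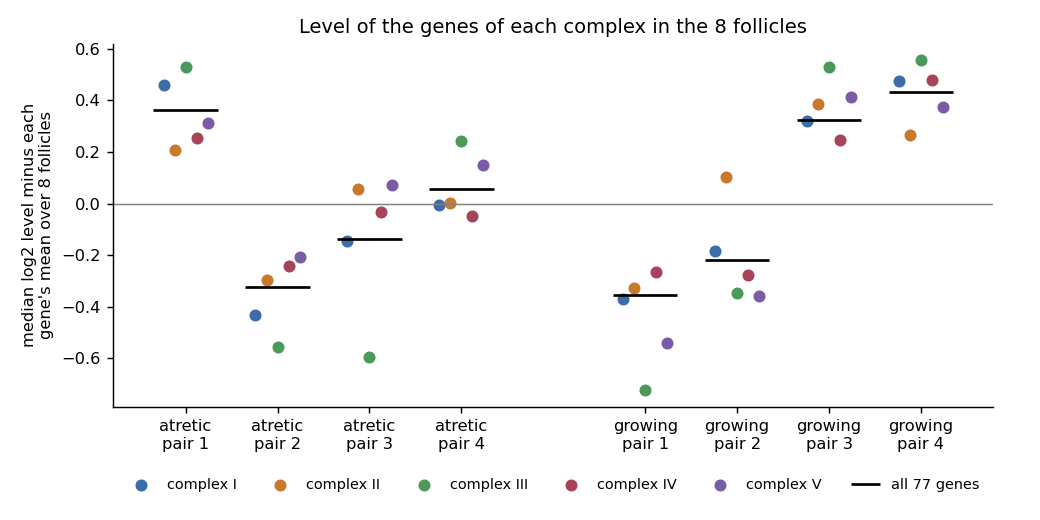
Median log2 level of the genes of each complex after subtraction of each gene's mean over 8 follicles (vertical axis), in the 4 atretic and the 4 growing follicles. Black bars give the median of all 77 genes, from -0.32 to 0.36 in atretic and from -0.35 to 0.43 in growing follicles.

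The genes varied together over the 8 follicles. The correlation of each gene with the median of the other members had a median of 0.77, and it was above 0.5 for 55 of 77 genes (71.4%). Over all genes the median correlation with the same profile was -0.02, with 17.4% above 0.5. The follicles of a pair shared their arrays and the normalisation, and the members share a platform, so these values are a description. Correlation was below 0 for 6 genes, which were ATP5G2 (-0.35), NDUFB10 (-0.25), ATP5D (-0.12), NDUFA4L2, NDUFA10 and ATP5S.

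Markers of cell types also differed between pairs. The mean ratio of 12 granulosa markers was 1.18, 0.15, -1.22 and 0.02 in pairs 1 to 4, and that of 8 theca markers was 0.75, -1.27, -0.80 and 0.25. The summed level of the granulosa markers ran from 16.73 to 18.07 in atretic and from 16.22 to 18.06 in growing follicles, on a log2 scale. For the theca markers it ran from 12.47 to 12.95 in atretic and from 11.85 to 13.39 in growing follicles. The ratio was above 0 for 9, 7, 2 and 6 of the 12 granulosa markers in pairs 1 to 4, and for 5, 1, 2 and 4 of the 8 theca markers. The signs of the 77 genes' medians were found in all 4 pairs for 3 granulosa and 2 theca markers. CYP19A1, the aromatase of granulosa cells, named after its values were seen, had levels of 15.91, 8.80, 11.77 and 15.32 in atretic follicles 1 to 4, against 11.43, 7.42, 15.76 and 14.66 in growing follicles 1 to 4. CYP17A1, a theca marker, had levels of 9.49, 7.42, 7.36 and 7.19 in atretic follicles 1 to 4. In growing follicles 1 to 4 its levels were 7.72, 9.11, 9.12 and 7.60, and it too was named after its values were seen. The paper proposes, from PCR of this gene, that an atretic sample was considerably contaminated with theca cells, and left it out there. Whether that sample is among these follicles was not tested. The part of cell composition and of steroidogenic state in the ratios of oxidative phosphorylation genes was not tested.

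Pair 1 decided the count of genes. Without it, 18 of the 77 genes passed the threshold of the study with lower levels in atretic follicles and 0 with higher levels (5.85% and 7.33% of all genes in these directions). They were 10 genes of complex I, 1 of complex II, 3 of complex III, 1 of complex IV and 3 of complex V. All 18 were lower in the atretic follicle in pairs 2, 3 and 4, by ratios that averaged between -1.16 and -0.61, and all 18 were higher in pair 1, by 0.19 to 1.79. These signs follow in part from the choice of genes, which passed in pairs 2 to 4 and not in all 4 pairs. The smallest adjusted p among them was 0.173 in limma, so 0 passed the adjusted threshold. The median of the 77 genes without pair 1 was -0.35. The count was not particular to these genes. Over all genes the share past the threshold in either direction was 13.2% without pair 1, against 5.11% with all pairs. Without pair 1, 15 of 39 proteasome subunit genes passed with lower and 0 with higher levels. Of 75 mitochondrial ribosomal protein genes, 14 passed with lower and 2 with higher levels. Of 57 cytosolic ribosomal protein genes, 0 passed with lower and 14 with higher levels.

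Among the 18 genes, 4 with a low p without pair 1 are given here, named after their values were seen. NDUFB1, an accessory subunit of the membrane arm of complex I, had ratios of 1.27, -1.38, -0.94 and -0.96 in pairs 1 to 4, a mean of -0.50 ± 0.48 (SE). ATP5J, the coupling factor in the peripheral stalk of ATP synthase (now ATP5PF), had 0.99, -1.34, -1.47 and -0.65, a mean of -0.62 ± 0.45. ATP5J2, a membrane subunit of ATP synthase (now ATP5MF), had 1.12, -0.77, -0.57 and -0.63, a mean of -0.21 ± 0.36. In each of them 1 pair opposed the other 3, which follows in part from how they were chosen. NDUFA4, first assigned to complex I and since to complex IV, had ratios of 1.59, -1.35, -1.45 and -0.56 and a mean of -0.44 ± 0.56.

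Complex I is entered by electrons from NADH at its matrix arm, and its NDUFB subunits lie in the membrane arm. Of the 7 core subunits of the matrix arm 6 were fitted, and their pair medians were 0.80, 0.02, -0.87 and -0.17. The 11 NDUFB genes had pair medians of 0.72, -0.19, -0.60 and -0.72. NDUFV1, the flavoprotein that takes electrons from NADH, had the lowest mean of all 77 genes, with ratios of 0.19, -0.01, -1.62 and -1.23 and a mean of -0.67 ± 0.36 (adjusted p = 0.84 in limma), which was -0.35 without pair 3. With the pair as a random block, its unadjusted p was 0.028 and its adjusted p 0.39, against an unadjusted p of 0.12 in limma over the averaged pairs. It was named after its values were seen.

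NDUFB7, an accessory subunit of complex I, had the widest spread over pairs in that complex. Its levels were 11.45, 11.78, 9.03 and 10.31 in atretic follicles 1 to 4, against 10.73, 11.53, 11.64 and 11.21 in growing follicles 1 to 4. Atretic follicle 3 was the lowest of the 8, and the groups overlapped. The ratios were 0.72, 0.25, -2.60 and -0.90, with a mean of -0.64 ± 0.58 and an adjusted p of 0.89 in limma.

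In 2 genes of complex I the ratio was above 0 in every pair, unlike the median of the complex in pairs 2, 3 and 4. Ratios were above 0 in all 4 pairs for 4 of the 77 genes, a smaller share than the 1134 of the 13625 genes fitted. They were below 0 in all 4 pairs for 0 and 925. NDUFC2, a subunit of the membrane arm, had levels of 13.45, 12.14, 12.96 and 13.44 in atretic follicles 1 to 4, against 12.94, 12.09, 12.61 and 12.74 in growing follicles 1 to 4. All 4 ratios were above 0 (0.51, 0.05, 0.35 and 0.70), although the groups overlapped. The mean ratio was 0.40 ± 0.14, with an unadjusted p of 0.037 and an adjusted p of 0.77 in limma.

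NDUFS5, an accessory subunit of complex I, was also higher in the atretic follicle of every pair. Its levels were 13.83, 13.60, 13.69 and 13.40 in atretic follicles 1 to 4, against 13.39, 12.60, 13.52 and 13.27 in growing follicles 1 to 4. Growing follicle 2 was the lowest, and the groups overlapped because growing follicle 3 lay above atretic follicle 4. The ratios were 0.44, 1.00, 0.17 and 0.13, with a mean of 0.43 ± 0.18 and an adjusted p of 0.79 in limma.

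NDUFA4L2, a relative of NDUFA4 known in human cells as a hypoxia-induced gene, was dim. It exceeded the negative controls on 5 of 8 arrays in the atretic channel and 4 of 8 in the growing channel. Its levels were 7.73, 7.30, 7.75 and 6.98 in atretic follicles, against 7.33, 7.26, 7.18 and 7.14 in growing follicles, which overlapped. The ratios were 0.40, 0.03, 0.57 and -0.17, while NDUFA4 itself was bright and had 1 positive and 3 negative ratios.

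Complex II, succinate dehydrogenase, also belongs to the citric acid cycle and is encoded by nuclear genes alone. SDHA, its flavoprotein, had levels of 13.57, 12.87, 12.88 and 12.47 in atretic follicles 1 to 4, against 12.66, 13.26, 13.59 and 12.84 in growing follicles 1 to 4, with a mean ratio of -0.14 ± 0.29. SDHB, the iron-sulphur subunit, had 14.20, 13.96, 14.59 and 14.24 in atretic follicles and 13.80, 14.40, 14.66 and 14.84 in growing follicles, with a mean ratio of -0.18 ± 0.20. In both the atretic follicle was higher in pair 1 alone, and the groups overlapped.

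The membrane anchors of complex II differed from each other. SDHC had ratios of 0.94, -1.04, -0.93 and -0.25, from levels of 10.83, 9.30, 9.70 and 10.29 in atretic follicles and 9.89, 10.33, 10.63 and 10.55 in growing follicles. SDHD had ratios of 0.00, 0.15, 0.27 and 0.21, from levels of 12.03, 11.95, 12.45 and 12.56 in atretic follicles and 12.03, 11.80, 12.18 and 12.34 in growing follicles. SDHC thus swung with the other members and SDHD kept within a narrow range, with means of -0.32 ± 0.37 and 0.16 ± 0.10. Adjusted p-values were 0.91 and 0.86 in limma.

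In complex III, UQCR (now UQCR11), a small subunit, had the widest spread over pairs. Its levels were 14.46, 13.24, 13.01 and 12.97 in atretic follicles 1 to 4, against 12.90, 13.75, 14.53 and 14.12 in growing follicles 1 to 4. The highest atretic follicle was paired with the lowest growing one. The ratios were 1.56, -0.51, -1.51 and -1.15, with a mean of -0.40 ± 0.54 and an adjusted p of 0.92 in limma.

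UQCRH, the hinge protein that helps cytochrome c1 bind cytochrome c, was higher in the atretic follicle of each pair, at a low level. It exceeded the negative controls on 7 of 8 arrays in the atretic channel and 4 of 8 in the growing channel. Levels were 7.70, 7.12, 7.50 and 7.53 in atretic follicles, against 7.68, 6.93, 7.37 and 7.02 in growing follicles. The groups overlapped, and the mean ratio was 0.21 ± 0.12 (adjusted p = 0.84 in limma).

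Complex IV, cytochrome c oxidase, has subunits with isoforms that differ between tissues. COX7A1, the isoform of heart and skeletal muscle, had the highest mean ratio of all 77 genes, a rank that rested on pair 2. Its levels were 11.28, 10.61, 10.49 and 10.20 in atretic follicles 1 to 4, against 10.11, 8.52, 10.72 and 10.08 in growing follicles 1 to 4. Growing follicle 2 was the lowest by far, and the others overlapped. The ratios were 1.16, 2.09, -0.22 and 0.12, with a mean of 0.79 ± 0.42 and an unadjusted p of 0.12 in limma. Without pair 2 its mean was 0.35, below the 0.59 of ATP5A1. With the pair as a random block over 8 arrays, the unadjusted p of COX7A1 was 0.031 and it passed the threshold of the study, at an adjusted p of 0.41. As given above, that fit passed nearly as many genes as one that treats dye swaps as separate follicles.

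COX7A2, the isoform found in most tissues, had levels of 14.40, 12.40, 13.16 and 14.01 in atretic follicles 1 to 4, against 12.72, 13.28, 14.22 and 14.23 in growing follicles 1 to 4. The ratios were 1.69, -0.87, -1.06 and -0.22, and the mean of -0.12 ± 0.50 was close to 0 because pair 1 opposed the other 3. COX7A2L, a related protein that joins complexes III and IV into supercomplexes, had ratios of only -0.18, 0.01, 0.23 and -0.17. Its SD over pairs, 0.19, was the lowest among the 13 fitted genes of complex IV.

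**Figure D4:**
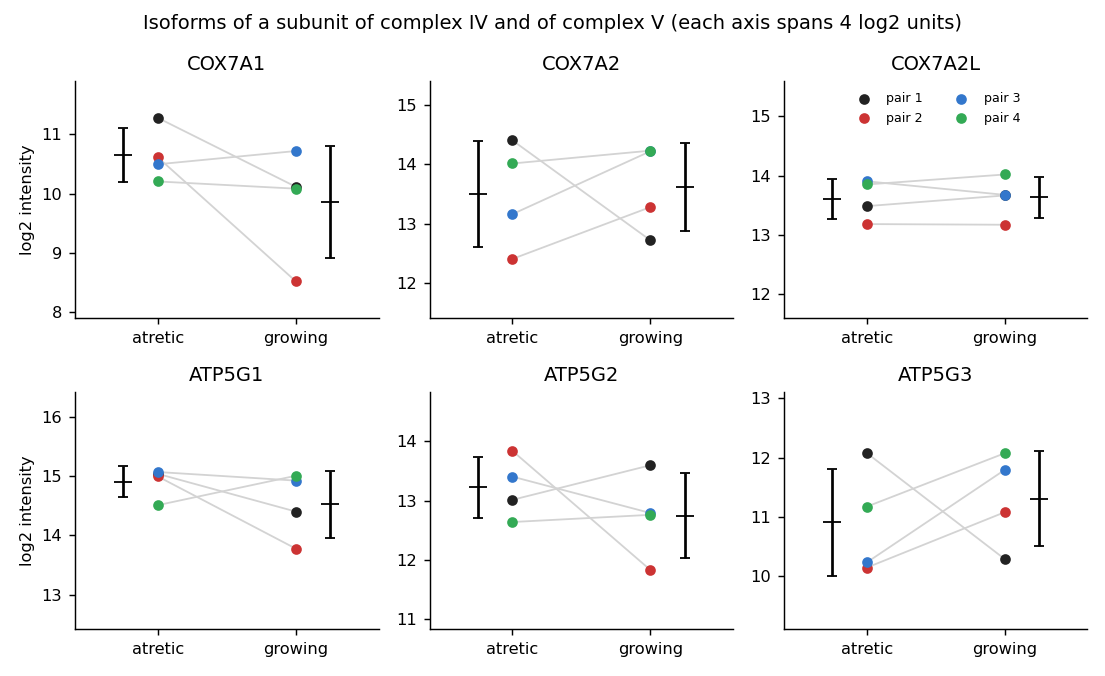
Log2 intensity (vertical axis, own range for each gene) of 3 COX7A genes of complex IV and 3 ATP5G genes of complex V in atretic and growing follicles. Grey lines join the follicles of a pair, and black bars give mean ± SD (n = 4), with atretic and growing means of 10.65 and 9.86 for COX7A1 and overlapping groups in all 6 genes.

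The other isoforms of complex IV had smaller mean ratios than COX7A1. COX6A1 had ratios of 0.70, -0.55, -0.22 and -0.09, COX6B1 had 0.34, 0.43, -0.49 and -1.03, and COX8A had -0.25, 0.52, 0.02 and -0.54. The spot of COX6A1 was saturated in the atretic channel on 1 of the 2 arrays of pair 1, so its 0.70 may understate the ratio there. The other probes of COX6A1, dimmer, had ratios of 1.46, -0.74, -0.87 and -0.36, and of 1.30, -0.78, -0.97 and -0.51. Their means were -0.13 and -0.24. COX6B2, a testis isoform, exceeded the negative controls on 1 of 8 arrays in the atretic channel and 3 of 8 in the growing channel, and its ratios were 0.55, -0.08, -0.19 and -0.78. COX8B, the heart isoform of COX8, had levels of 8.78, 8.40, 9.12 and 8.22 in atretic follicles and 8.71, 8.14, 9.05 and 9.32 in growing follicles. Its ratios were 0.07, 0.26, 0.07 and -1.10, so that pair 4 alone stood apart. COX7B had ratios of 0.21, 0.43, -0.29 and -0.85. By the brightest probe, none of these genes had a mean beyond 0.19 in size.

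In complex V, the ATP5G genes encode the same mature protein, subunit c of the membrane rotor, behind different mitochondrial import signals. ATP5G3 (now ATP5MC3) had the widest spread of the complex, with levels of 12.08, 10.15, 10.23 and 11.17 in atretic follicles 1 to 4, against 10.29, 11.08, 11.79 and 12.08 in growing follicles 1 to 4. The ratios were 1.79, -0.93, -1.56 and -0.90 (mean -0.40 ± 0.59). ATP5G2 (now ATP5MC2) ran the other way in pairs 1, 2 and 3, with ratios of -0.58, 2.01, 0.61 and -0.12 (mean 0.48 ± 0.45).

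ATP5G1 (now ATP5MC1) had levels of 15.04, 15.00, 15.07 and 14.51 in atretic follicles and 14.40, 13.78, 14.93 and 15.01 in growing follicles. Its ratios were 0.64, 1.22, 0.14 and -0.50 (mean 0.38 ± 0.30). The 2 other probes of ATP5G1 gave means of -0.05 and -0.02, with ratios below 0 in pairs 2, 3 and 4, so the probes of this gene disagreed. None of the ATP5G genes passed the adjusted threshold in limma (adjusted p from 0.87 to 0.93).

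ATP5A1 (now ATP5F1A), the alpha subunit of the catalytic head, had the highest mean of complex V and was named after its values were seen. Its ratios were 1.74, 0.74, -0.16 and 0.20, a mean of 0.63 ± 0.33, which was 0.26 without pair 1. With the pair as a random block, its unadjusted p was 0.028 and its adjusted p 0.39 in limma, against an unadjusted p of 0.12 over the averaged pairs. ATP5B (now ATP5F1B), the catalytic beta subunit of the same head, also named after its values were seen, had ratios of 1.61, -0.09, -0.97 and -0.28 and a mean of 0.07 ± 0.44. The 5 genes of the head had pair medians of 1.41, -0.04, -0.16 and -0.46, and the 4 genes of the peripheral stalk had 0.85, -0.30, -0.67 and -0.38.

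ATP5S had the smallest p of the 77 genes. Its protein is known as coupling factor B. Its levels were 12.76, 12.61, 13.24 and 12.85 in atretic follicles 1 to 4, against 12.49, 12.18, 12.64 and 12.34 in growing follicles 1 to 4. The groups overlapped only in that growing follicle 3 lay just above atretic follicle 2. The ratios were 0.27, 0.43, 0.60 and 0.52, a mean of 0.45 ± 0.11 with an unadjusted p of 0.0089 and an adjusted p of 0.72 in limma. The fold was below the threshold of the study. Of its 2 other probes, both dimmer, 1 had a mean of 0.33 and 1 of -0.25.

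Probes of a gene did not always give the same sign elsewhere either. In all, 31 of the genes had 44 further probes, of which 43 were fitted. The mean had the same sign as that of the brightest probe in 29 of them and the opposite sign in 14.

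Other large families were set beside the 77 genes as a comparison. The 39 proteasome subunit genes had pair medians of 0.66, -0.40, -0.71 and -0.39, with the same signs as the oxidative phosphorylation genes. The 75 mitochondrial ribosomal protein genes had 0.34, 0.18, -0.42 and -0.39. The 57 cytosolic ribosomal protein genes differed, with -0.07, 1.17, 0.44 and 0.07. The signs seen in the complexes were thus also seen in the proteasome genes.

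**Figure D5:**
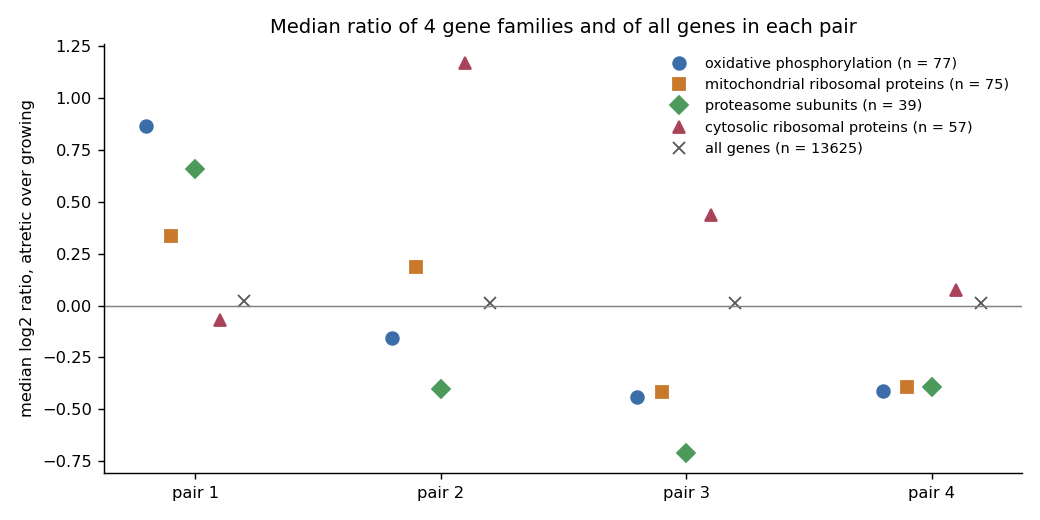
Median log2 ratio (atretic over growing, vertical axis) in each pair for 77 oxidative phosphorylation genes, 3 other gene families and all genes. The oxidative phosphorylation and proteasome medians are above 0 in pair 1 (0.87 and 0.66) and below 0 in pairs 2 to 4, and those of all genes stay at 0.01 to 0.02.

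Genes around the respiratory chain were read from lists of carriers, assembly factors and enzymes, whose members were written from general knowledge. Among 6 other subunits and electron carriers, 1 had a higher mean in atretic follicles and 0 passed the threshold of the study. Their median ratios were 0.78, -0.19, -1.28 and -0.82 in pairs 1 to 4. CYCS, cytochrome c, which also starts caspase activation when it leaves mitochondria, had the widest ratios, 2.64, -3.70, -2.52 and -2.66. Its levels were 15.13, 12.08, 13.34 and 13.30 in atretic follicles 1 to 4, against 12.48, 15.78, 15.86 and 15.96 in growing follicles 1 to 4. The growing follicle of pair 1 was thus low and the other 3 growing follicles were higher than every atretic follicle. The mean was -1.56 ± 1.11, with an adjusted p of 0.87 in limma, and the gene was named after its values were seen.

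Assembly factors had means on both sides of 0. A higher mean in atretic follicles was found for 6 of 9 factors of complex I, 4 of 6 of complexes II and III, 9 of 11 of complex IV and 2 of 4 of complex V, with 0 past the threshold of the study. Median ratios in pairs 1 to 4 were 0.63, 0.06, -0.46 and -0.18 for factors of complex I. For those of complexes II and III they were 1.08, 0.05, -0.64 and -0.29. For those of complex IV they were 0.19, 0.30, -0.19 and 0.13, and for those of complex V 0.69, 0.02, -0.53 and -0.51. A further list of 11 genes held carriers and channels for ADP, ATP and phosphate, mitochondrial creatine kinases (CKMT1, CKMT2) and uncoupling proteins (UCP2, UCP3). Of these 11, 3 had a higher mean in atretic follicles (SLC25A6, CKMT1 and CKMT2) and 0 passed. Their median ratios were 0.29, -0.34, -0.30 and -0.24 in pairs 1 to 4.

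Of 17 genes of the citric acid cycle and pyruvate dehydrogenase, 9 had a higher mean in atretic follicles and 1 passed the threshold of the study, a share near the 5.11% of all genes. This was PC, pyruvate carboxylase, which makes oxaloacetate from pyruvate. Its levels were 7.96, 8.25, 7.92 and 7.62 in atretic follicles 1 to 4, against 8.29, 9.57, 8.22 and 8.30 in growing follicles 1 to 4. It was lower in the atretic follicle of each pair, with ratios of -0.32, -1.32, -0.30 and -0.68, and the groups overlapped only because atretic follicle 2 lay above growing follicle 3. The mean was -0.66 ± 0.21, with an unadjusted p of 0.025 and an adjusted p of 0.76 in limma. Without pair 2 the ratio was -0.44 and PC no longer passed. The median ratios of all 17 genes were 0.73, -0.39, -0.30 and 0.02 in pairs 1 to 4.

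Of 16 regulators of mitochondrial biogenesis and genes of mitochondrial DNA upkeep, 10 had a higher mean in atretic follicles, and of 14 genes of mitophagy and mitochondrial dynamics 10 did, with 0 past the threshold of the study in both lists. The median ratios of the biogenesis list were -0.05, 0.07, 0.15 and 0.13 in pairs 1 to 4, without the swing of the complexes. Those of the mitophagy and dynamics list were 0.35, -0.10, 0.11 and 0.03.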

How the data were processed

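Granulosa cell RNA of 4 atretic and 4 growing follicles was hybridised on 8 arrays of 2 colours, with dyes exchanged within pairs. The authors deposited spot and background intensity per channel, not normalised, and processed log2 ratios of Cy5 over Cy3, used only as an alternative.

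Intensities were corrected with normexp (offset 50), then normalised by loess within and by quantiles between arrays. The filter, a mean log2 intensity of 7 or more, left 36295 of 43794 probes. Ratios were turned to atretic over growing and dye swaps averaged to 4 pairs. The pairing comes from the shared arrays, and same-numbered arrays correlated at 0.72 or more over all genes. Ratios were tested against 0, two-sided, with limma 3.58.1 in R 4.3.3 and Benjamini-Hochberg adjustment over all probes. The method was tested on simulated data whose planted changes were far larger than the mean ratios of these genes. The simulated spreads were no wider than the median over probes, so that test does not show what could be detected here. Names came from the platform annotation, in which 21790 probes had 1 symbol and 22004 none. Negative controls means the 95th percentile of 153 such spots.

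Genes named were those past the threshold of the study, the genes with the same sign in all pairs (up to 2 in each direction per complex), the widest spread of each complex, complex II, isoform sets, and listed genes past the threshold, and others are marked as named after their values were seen. Members and lists were chosen with earlier results of these data known. The sources used here do not say if the follicles are of separate animals, and p-values therefore reflect only how far these 4 pairs scatter. The number of arrays limits the precision.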

Additional observations from a re-analysis of the deposited data

Results flagged for a closer look

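In sets of 4 values, a value was noted where its gap to the nearest of the others exceeded Dixon's 95% critical value for its share of the range. Of 93 sets tested 4 were noted, and chance alone gives about 5% of sets. The median ratio of complex II was 0.65 in pair 1, with -0.41, -0.39 and -0.31 in the other pairs. The ratio of COX8B was -1.10 in pair 4, with 0.07, 0.26 and 0.07 in pairs 1 to 3. The atretic level of ATP5G1 was 14.51 in pair 4, with 15.04, 15.00 and 15.07 in pairs 1 to 3. The growing level of PC was 9.57 in pair 2, with 8.29, 8.22 and 8.30 in pairs 1, 3 and 4.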

How the results depend on the processing

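The median ratio of the 77 genes ran from -0.35 to 0.08 over 21 alternatives. The medians ran from -0.34 to 0.09 for complex I, -0.43 to -0.03 for complex II and -0.64 to 0.10 for complex III. For complexes IV and V they ran from -0.29 to 0.09 and from -0.20 to 0.20, so all but complex II changed sign. Each moved by less than its SD over pairs, but that SD was wide, 0.45 to 0.98 over the complexes. Some alternatives changed the p alone and left the ratio as it was. Genes past the threshold of the study numbered 0, but 3 with the pair as a replicate block over 8 arrays and 3 with a dye term added (ATP5A1, COX7A1, NDUFV1), against 8.98% and 8.67% of all genes. They numbered 3 with the arrays taken as independent, against 8.99%, where 1 gene (ATP5S) passed the adjusted threshold against 2.51%, and that treats dye swaps as separate follicles. There were 1 on slide 203 alone (COX8B), 3 on slides 204 and 248 alone (COX7A1, NDUFA3, NDUFA7) and 1 with array weights (NDUFV1), against 8.07%, 7.63% and 7.3% of all genes. In these 6 fits the share of the 77 genes, 1.3% to 3.9%, was below that of all genes. Leaving out a pair gave 0 to 18 genes, 18 (23.4%, against 13.2% of all genes) without pair 1 and 1 (UQCRC1; 1.3%, against 5.21%) without pair 2. The count of genes with a higher mean in atretic follicles, 32 in the analysis reported, became 19 with array weights and 15 to 47 when a pair was left out.

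Of 25 single genes, 12 turned sign under some setting. With median centring, COX6A1 became 0.019, COX7A2L 0.0078 and COX8A 0.0030. On slide 203 alone COX7A2 became 0.020, COX6A1 0.095 and COX7B 0.060. On slides 204 and 248 alone COX8A became 0.32, COX8B 0.29 and SDHD -0.092. Averaged over probes COX7A2L became 0.037 and SDHA 0.0097. When 1 pair was left out, the ratio ran from 0.35 to 1.12 for COX7A1, -0.031 to 0.83 for ATP5G2, -0.29 to 0.13 for COX6A1, -0.39 to 0.095 for COX6B1, -0.35 to 0.095 for COX6B2, -0.72 to 0.20 for COX7A2, -0.11 to 0.024 for COX7A2L, -0.31 to 0.12 for COX7B, -0.26 to 0.096 for COX8A, -0.32 to 0.14 for COX8B, -1.09 to 0.021 for NDUFB7 and -0.49 to 0.048 for SDHA. PC fell short of the threshold with 6 alternatives, its ratio then lying between -0.66 and -0.52, and without pair 2 or pair 4. The cause of these changes was not tested.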
